A study of Mus musculus with 10 samples.

Results

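Complement is a system of blood and tissue proteins that marks cells and microbes and can lyse them. It is started by the classical pathway (C1q, with the proteases C1r and C1s), by the lectin pathway (mannose-binding lectins and ficolins, with the MASP proteases) or by the alternative pathway (factor B). All of these form enzymes that cleave C3 and then C5, after which C6 to C9 assemble a pore in the membrane, and soluble and membrane-bound inhibitors hold each step in check. The liver makes most of these proteins, and fibroblasts are known to secrete several of them.

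The transcripts of complement components and of their inhibitors were followed in irradiated mouse embryonic fibroblasts (MEFs). The list held 9 genes. It consisted of Serping1, the soluble inhibitor of C1, of Cd55 and Cd59a, membrane-bound inhibitors, and of C1ra, C2, Masp1, Cfb, C3 and Hc (which encodes C5), components of the cascade. Each gene was read from the probeset that paired with its symbol alone and was chosen by the highest mean over the 10 arrays. Of the 9 genes, 8 had exactly 1 such probeset, so that this measured value left no choice to make, and they stood among 19938 genes with a probeset of their own and 35557 probesets in all. C3 had no probeset that paired with its symbol alone and was not analysed here. The list was drawn up with earlier results on these arrays known, the rise of Serping1 among them. The p-values below are therefore values of a fit over all probesets, and give no independent support to a direction that had already been seen.

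All MEFs were wild type, had received 1000 rad and were kept in medium with murine IL-3 until RNA was taken on day 9. In the MEFs + DMSO and MEFs + nilotinib groups (3 arrays each), they were cultured alone with DMSO, the solvent, or with 16 nM nilotinib, an inhibitor of the Abl kinase. In the MEFs + ALL + nilotinib group (3 arrays) and the MEFs + ALL + DMSO group (1 array), 8093 preB acute lymphoblastic leukemia (ALL) cells from a Bcr/Abl transgenic mouse shared the medium behind a Transwell membrane with 0.4 uM pores and were given the same agents. The triplicates were separate dishes of MEFs, so that the p-values measured the spread between dishes, and the number of arrays limited the precision.

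The arrays had median log2 signals of 6.94 to 7.01 and correlated pairwise at r = 0.975 to 0.995 across probesets. The 10 fibroblast markers had mean log2 signals of 7.86 (Pdgfra) to 13.52 (Fn1). Those of the 7 macrophage markers were 6.65 (Cd14) to 11.98 (Lyz2). The MEFs + ALL + DMSO array stood apart on the first principal component (30.8% of the variance), with a score of -66.9 against -9.13 to 22.6 for the others. It also carried transcripts of lymphoid cells. The summed anti-logged signal of 9 precursor B and B cell markers was 5740 there and 1084 to 1195 on the other 9 arrays, and that of 7 pan-leukocyte markers was 8559 there and 2319 to 2883 elsewhere. The methods state that its companion dishes were discarded because ALL cells had entered them. MEFs + ALL + nilotinib replicate 2 stood apart on the second component (18.9% of the variance), with a score of 50.0 against -17.0 to 13.1.

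Serping1 encodes the C1 inhibitor, a serpin that inactivates C1r, C1s and the MASP proteases and also restrains kallikrein of the contact system. Of the 8 genes it had the largest difference in each of the 3 comparisons that added ALL cells. Its log2 signal was 7.49, 7.22 and 6.98 in MEFs + DMSO and 7.38, 7.46 and 7.26 in MEFs + nilotinib. It was 8.51, 8.21 and 8.37 in MEFs + ALL + nilotinib and 8.61 in MEFs + ALL + DMSO. All 4 arrays of MEFs that had shared medium with ALL cells were thus above all 6 arrays of MEFs cultured alone, and the MEFs + DMSO and MEFs + nilotinib arrays overlapped. How many of all probesets separate 4 arrays from 6 in this way was not counted. Of the 4, the MEFs + ALL + DMSO array is the one that carried transcripts of lymphoid cells. The group means were 7.23 ± 0.26 (SD, n = 3) in MEFs + DMSO, 7.37 ± 0.10 (SD, n = 3) in MEFs + nilotinib and 8.36 ± 0.15 (SD, n = 3) in MEFs + ALL + nilotinib. The MEFs + ALL + DMSO array was the highest of the 10, and its gap to MEFs + ALL + nilotinib was not tested on its own.

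Serping1 rose by 1.13 on the log2 scale in MEFs + ALL + nilotinib over MEFs + DMSO (95% interval 0.82 to 1.44, limma adjusted p = 0.0192), and its mean anti-logged signal was 2.17-fold that of MEFs + DMSO. Against MEFs + nilotinib, where the drug was the same, it rose by 0.99 (95% interval 0.68 to 1.30, limma adjusted p = 0.0415), or 1.99-fold. These comparisons share the MEFs + ALL + nilotinib arrays. The drug on MEFs alone gave a difference of 0.14 (95% interval -0.17 to 0.44, limma adjusted p = 0.738). In MEFs + ALL + DMSO over MEFs + DMSO the rise was 1.38 (95% interval 0.94 to 1.81, limma adjusted p = 0.00284), with the lone array assumed to vary like those of the other groups. In bulk RNA, more cells of a type and more RNA per cell cannot be told apart.

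The size of the rise moved little between fits, but the call did not hold in all of them. Over MEFs + DMSO, it passed in 8 of 14 alternative fits. These passes include the fit without the MEFs + ALL + DMSO array, which could not change this comparison and is no check of it. Among the fits in which the rise did not pass, the adjusted p was 0.0770 with only the compared groups in the fit. Without 1 array it was 0.0902 (MEFs + ALL + nilotinib replicate 1 left out), 0.0770 (replicate 3), 0.113 (MEFs + DMSO replicate 2) and 0.0779 (replicate 3), with differences of 1.00 to 1.26 over all 6 such fits. Over MEFs + nilotinib, the rise passed in 6 of 14, the fit without the MEFs + ALL + DMSO array again among them. With only the compared groups in the fit, the adjusted p was 0.0948. Leaving out any 1 of the 6 arrays gave an adjusted p of 0.0674 to 0.194 and a difference of 0.92 to 1.07. Whether the response to ALL cells differed with the drug was tested as an interaction. The rise was 0.38 smaller with nilotinib than with DMSO (95% interval -0.92 to 0.15, limma adjusted p = 0.400). A different response was thus not detectable with these arrays, and the wide interval does not show that the responses were equal. The DMSO side of the interaction is the lone array, which had no spread of its own and carried transcripts of lymphoid cells.

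**Figure D1:**
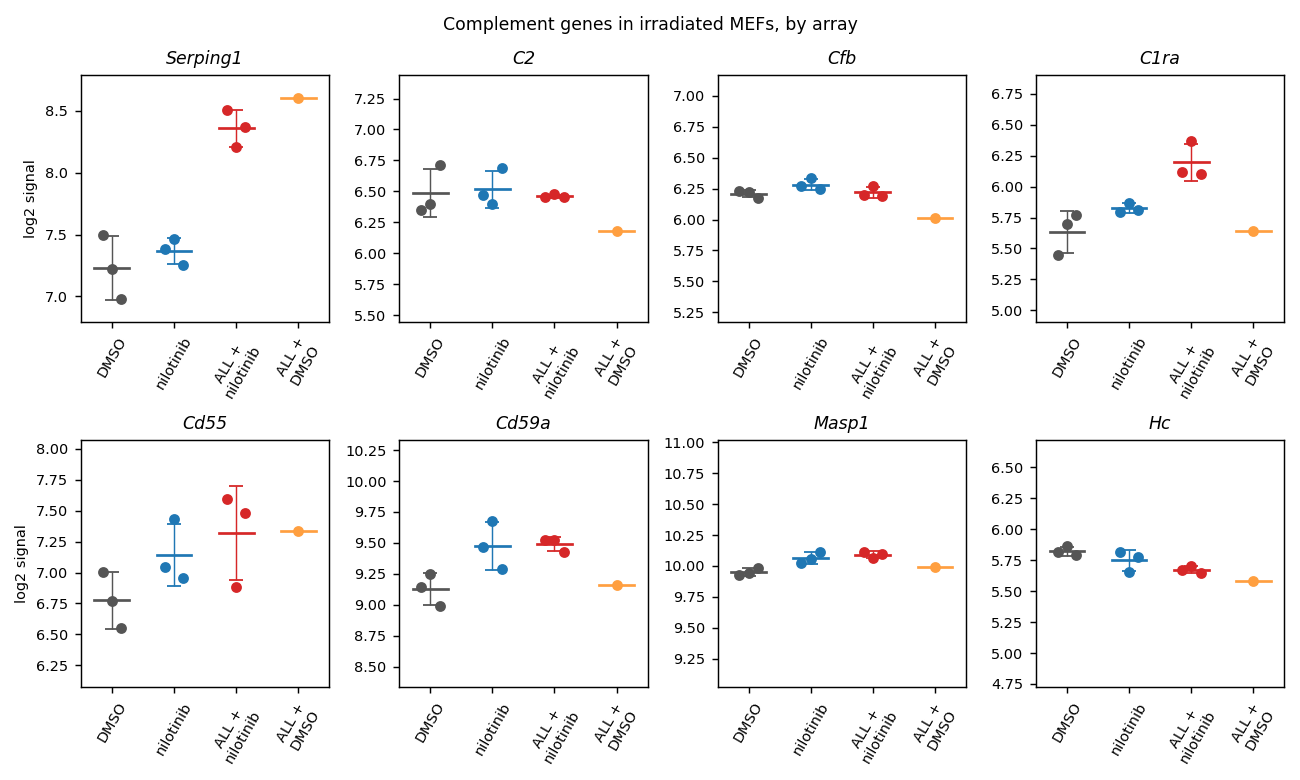
Log2 signal of the 8 measured complement genes on each of the 10 arrays, by group. Points are arrays, horizontal lines are group means and bars are ± 1 SD (n = 3, none for the lone MEFs + ALL + DMSO array), and every panel spans the same number of log2 units. The 4 Serping1 values with ALL cells lie between 8.21 and 8.61, above the 6 values without them at 6.98 to 7.49, while all values of Masp1 lie within 0.19 and those of Cfb within 0.32.

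In the plot of the signals by array, Serping1 is followed by the components of the cascade, the proteases that it inhibits among them. C1ra encodes C1r, the protease of the C1 complex that activates C1s. Its log2 signal was 5.44, 5.70 and 5.77 in MEFs + DMSO, 5.79, 5.87 and 5.81 in MEFs + nilotinib and 6.12, 6.37 and 6.10 in MEFs + ALL + nilotinib. It was 5.64 in MEFs + ALL + DMSO. The 3 groups of 3 did not overlap and ran from MEFs + DMSO through MEFs + nilotinib to MEFs + ALL + nilotinib. The MEFs + ALL + DMSO array, however, lay within the MEFs + DMSO range. The C1ra probeset was dim, with a mean over all arrays of 5.86, at percentile 29.8 of the probesets. The hepatocyte markers had means of 4.92 (Alb) to 6.40 (Apoa1) on the same arrays. Whether the C1ra signal stood above background was not tested.

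The C1ra difference of MEFs + ALL + nilotinib over MEFs + DMSO was 0.56 (95% interval 0.32 to 0.80), with a limma adjusted p of 0.0643. It passed in 3 of the 14 alternative fits, with adjusted p-values of 0.0268 to 0.189 over all 14. Over MEFs + nilotinib the difference was 0.37 (95% interval 0.13 to 0.61, limma adjusted p = 0.315). In MEFs + ALL + DMSO over MEFs + DMSO it was 0.01 (95% interval -0.33 to 0.35, limma adjusted p = 0.981). The interaction was 0.36 (95% interval -0.05 to 0.78, limma adjusted p = 0.309), so that a different response of C1ra with and without the drug was not detectable with these arrays.

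C1ra has a near-identical neighbour, C1rb, and probes for the one may bind transcripts of the other. A further probeset paired with both symbols and was not used. The likeness of the genes extends upstream, as their RefSeq promoters (GRCm38.p6) show. Below, 99 bases of each are aligned without gaps, both on the + strand, with the bases that differ in capitals. The stretches are chr6:124512522-124512620, which ends 1 base before the C1ra start, and chr6:124570180-124570278, which ends 152 bases before the C1rb start.
C1ra: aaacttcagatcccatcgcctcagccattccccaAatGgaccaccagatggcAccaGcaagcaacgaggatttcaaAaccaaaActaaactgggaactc
C1rb: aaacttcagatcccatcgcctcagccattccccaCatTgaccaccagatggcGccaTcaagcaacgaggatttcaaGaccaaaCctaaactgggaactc
Of the 99 bases, 93 were shared (93.9%) and 6 differed. The array measures the transcripts and not these promoters, and how much of the C1ra signal came from C1rb was not tested.

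C2 supplies the catalytic subunit of the C3-cleaving enzyme of the classical and lectin pathways. The log2 signal of C2 was 6.35, 6.40 and 6.71 in MEFs + DMSO, 6.47, 6.40 and 6.68 in MEFs + nilotinib, 6.45, 6.48 and 6.45 in MEFs + ALL + nilotinib and 6.18 in MEFs + ALL + DMSO. The groups of 3 overlapped, and the lone array was the lowest. The differences between the groups of 3 were -0.06 to 0.03, with limma adjusted p-values of 0.898 to 0.938, and changed sign under other fits. The interval of MEFs + ALL + nilotinib over MEFs + DMSO ran from -0.28 to 0.23.

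Masp1 encodes a lectin pathway protease, which the C1 inhibitor also inactivates. On the log2 scale its signal was 9.92, 9.94 and 9.99 in MEFs + DMSO, 10.02, 10.05 and 10.12 in MEFs + nilotinib and 10.12, 10.06 and 10.09 in MEFs + ALL + nilotinib. It was 9.99 in MEFs + ALL + DMSO. The MEFs + DMSO arrays were the lowest of the 3 groups and did not overlap the others, which overlapped each other. The differences were small, at 0.14 (95% interval 0.01 to 0.27) for MEFs + ALL + nilotinib and 0.11 (95% interval -0.01 to 0.24) for MEFs + nilotinib, both over the same MEFs + DMSO arrays. The limma adjusted p-values were 0.272 and 0.481.

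Cfb encodes factor B, the protease of the alternative pathway, and lies next to C2 in the genome. The Cfb signal (log2) was 6.23, 6.22 and 6.18 in MEFs + DMSO, 6.27, 6.33 and 6.24 in MEFs + nilotinib, 6.20, 6.27 and 6.19 in MEFs + ALL + nilotinib and 6.01 in MEFs + ALL + DMSO. The mean Cfb signal over all arrays was 6.21, at percentile 36.3 of the probesets. This lay within the means of the hepatocyte markers, 4.92 to 6.40, and a signal above background was not tested. Over MEFs + DMSO, the difference was 0.01 in MEFs + ALL + nilotinib (95% interval -0.12 to 0.14, limma adjusted p = 0.939). The lone array was lower by 0.20 (log2 difference -0.20, 95% interval -0.38 to -0.01), with a limma adjusted p of 0.157.

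Hc encodes C5, the precursor of the C5a peptide and of the first protein of the pore. The Hc signal (log2) was 5.81, 5.86 and 5.79 in MEFs + DMSO, 5.82, 5.65 and 5.78 in MEFs + nilotinib, 5.67, 5.70 and 5.65 in MEFs + ALL + nilotinib and 5.58 in MEFs + ALL + DMSO. The mean Hc signal over all arrays was 5.73, at percentile 27.5 of the probesets. This too lay within the means of the hepatocyte markers, 4.92 to 6.40, and a signal above background was not tested. Hc was the 1 gene of the 8 whose MEFs + ALL + nilotinib arrays all lay below the MEFs + DMSO arrays. The difference was -0.15 (95% interval -0.29 to -0.0039, limma adjusted p = 0.297), and -0.24 in MEFs + ALL + DMSO (95% interval -0.44 to -0.04, limma adjusted p = 0.125).

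The membrane-bound inhibitors shield a cell from its own complement. Cd55, or decay-accelerating factor, takes apart the enzymes that cleave C3 and C5. Its log2 signal was 7.002, 6.77 and 6.55 in MEFs + DMSO, 7.04, 7.43 and 6.96 in MEFs + nilotinib, 7.60, 6.88 and 7.48 in MEFs + ALL + nilotinib and 7.33 in MEFs + ALL + DMSO. The MEFs + ALL + nilotinib arrays spread widely, and replicate 2, the array that stood apart on the second principal component, lay within the MEFs + DMSO range. The difference over MEFs + DMSO was 0.55 (95% interval 0.07 to 1.02, limma adjusted p = 0.256), and 0.56 in MEFs + ALL + DMSO (95% interval -0.12 to 1.24, limma adjusted p = 0.260). Over the 14 alternative fits the former ran from 0.41 to 0.76, with adjusted p-values of 0.0519 to 0.528. Cd55 has a close relative, Cd55b, which was measured by a probeset of its own with a difference of 0.15 (limma adjusted p = 0.590). That probeset was very dim, at 3.71 in MEFs + DMSO and 3.86 in MEFs + ALL + nilotinib, so the difference says little of Cd55b.

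Cd59a blocks the assembly of the pore. The Cd59a signal (log2) was 9.14, 9.25 and 8.99 in MEFs + DMSO, 9.47, 9.67 and 9.29 in MEFs + nilotinib, 9.53, 9.52 and 9.43 in MEFs + ALL + nilotinib and 9.16 in MEFs + ALL + DMSO. Both nilotinib groups were above the MEFs + DMSO arrays without overlap, and the ALL + DMSO array was among the latter. Over the shared MEFs + DMSO arrays, the difference was 0.35 in MEFs + nilotinib (95% interval 0.10 to 0.59, limma adjusted p = 0.368). It was 0.36 in MEFs + ALL + nilotinib (95% interval 0.12 to 0.61, limma adjusted p = 0.167). MEFs + ALL + nilotinib and MEFs + nilotinib differed by 0.01 (95% interval -0.23 to 0.26, limma adjusted p = 0.978). None of these differences passed the test.

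The differences of the 8 genes were read against those of all probesets. In MEFs + ALL + nilotinib over MEFs + DMSO, 1 of the 8 genes (Serping1) passed the limma test, where 0.627% of the 35557 probesets did. An unadjusted p below 0.05 was given for 6 of the 8 genes and for 16.2% of all probesets. The arrays did not overlap for 5 of the 8 genes, with Serping1, C1ra, Cd59a and Masp1 higher and Hc lower, against 24.7% of all probesets in either direction. The median of the 8 differences was 0.25, beside 0.00 over all probesets. In a simulation of this comparison, 28% of changes of 0.5 on the log2 scale were recovered, 78.5% of changes of 1 and 96% of changes of 2. There were 4, 8 and 12 false calls. These rates are averages over 200 probesets with independent normal noise, and are not rates for a single gene. The differences of C1ra, Cd55 and Cd59a were 0.56, 0.55 and 0.36. Their SDs about the group means were 0.13, 0.30 and 0.14, beside a median of 0.13 over all probesets, so the rates do not apply to Cd55.

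In MEFs + nilotinib over MEFs + DMSO, 0 of the 8 genes passed limma and 0% of all probesets did. An unadjusted p below 0.05 was given for 1 of the 8 genes, Cd59a, and for 3985 probesets (11.2%). The arrays did not overlap for 4 of the 8 genes (Cfb, C1ra, Cd59a and Masp1, all higher with nilotinib), against 20.6% of all probesets. In MEFs + ALL + nilotinib over MEFs + nilotinib, Serping1 alone of the 8 passed, where 0.186% of all probesets did. Serping1 and C1ra did not overlap between these groups, against 14.4% of all probesets. In MEFs + ALL + DMSO over MEFs + DMSO it was again Serping1 alone, where 10.3% of all probesets passed. The interaction was past the threshold for 0 of the 8 genes in limma, with adjusted p-values of 0.309 to 0.974, where 3.95% of all probesets passed. An unadjusted p below 0.05 was given for 0 of the 8 and for 19.5% of all probesets.

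**Figure D2:**
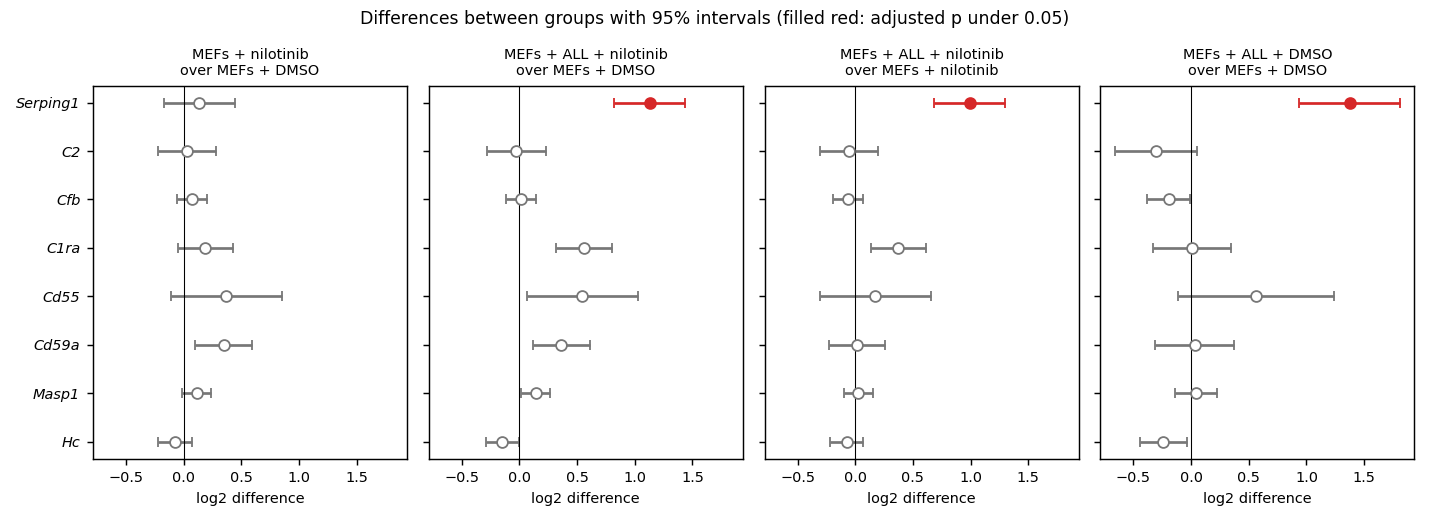
Log2 differences between groups for the 8 measured complement genes, with 95% intervals from limma, in 4 panels for the 4 comparisons. Filled red points have an adjusted p under 0.05 over all probesets and open points do not. Serping1 is filled in the 3 comparisons that add ALL cells, at 1.13, 0.99 and 1.38, and open at 0.14 for the drug alone.

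The plot of the differences with their intervals also shows that no other gene of the 8 was filled in any panel. Of the complement genes outside the 9, a list of 50 was examined, of which 44 had a probeset under their symbol alone. In MEFs + ALL + nilotinib over MEFs + DMSO, 0 of the 44 passed limma and 11 (25%) had an unadjusted p below 0.05, beside 16.2% of all probesets. The median of the 44 differences was 0.03, with 26 above 0, and the arrays did not overlap for 8 higher and 3 lower genes, a share near the 24.7% of all probesets.

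Among 8 other genes of the classical pathway, 7 had differences above 0, with a median of 0.16, and 4 were higher without overlap, where 24.7% of all probesets did not overlap in either direction. C1s1, which encodes the C1s protease and neighbours C1ra, had a difference of 0.44 (SE 0.12, limma adjusted p = 0.144). C1qb, which encodes a chain of C1q, had 0.36 (SE 0.12, limma adjusted p = 0.199). Neither passed, and over MEFs + nilotinib their differences were 0.23 and 0.10. The other chains of C1q, C1qa and C1qc, were at 0.08 and 0.02 over MEFs + DMSO (limma adjusted p = 0.790 and 0.944). C1q is typically made by macrophages. The summed signal of 7 macrophage markers was 5319 to 6310 on the arrays of the groups of 3 and 5448 in MEFs + ALL + DMSO. In each of the 4 comparisons, 0 of 7 markers passed the test. The brightest of the 7 was Lyz2, with a mean log2 signal of 11.98 over the arrays, and the next was Cd68 at 9.14. Whether macrophages had a part in the C1q values was not tested.

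Among 7 other lectin pathway genes the median difference was 0.03. Fcnb, a ficolin, was at -0.35 (SE 0.09, limma adjusted p = 0.119) in MEFs + ALL + nilotinib and at -0.30 in MEFs + nilotinib, over the same MEFs + DMSO arrays. Mbl2 and Mbl1, mannose-binding lectins, were at 0.27 (adjusted p = 0.164) and -0.15 (adjusted p = 0.437). The Mbl1 probeset was dim, at a log2 signal of 5.21 in MEFs + DMSO, and a signal above background was not tested. Cfp, or properdin, which stabilises the C3-cleaving enzyme of the alternative pathway, was at 0.29 (SE 0.07, limma adjusted p = 0.129). None of these passed.

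In the terminal pathway, C6 was at 0.11, C8b at 0.08 and C7 at -0.21, and the median of 6 genes was -0.01. The probesets of C6, C8b and C7 were dim, at log2 signals of 5.14, 5.58 and 5.19 in MEFs + DMSO. These lay within the means of the hepatocyte markers, 4.92 to 6.40, as did Cpn2 at 6.01. A signal above background was not tested. Of 7 other soluble regulators, with a median of -0.04, Cpn2, a subunit of the carboxypeptidase that inactivates C3a and C5a, was at -0.25 (adjusted p = 0.283). Clu, or clusterin, which binds the forming pore, was at 0.21 (adjusted p = 0.164). Serping1 was therefore the 1 soluble regulator of the list to pass.

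The other membrane regulators had a median of 0.06 over 6 genes. Cd59b, the close relative of Cd59a, had the largest difference at 0.29 (SE 0.08, limma adjusted p = 0.144), and Cr1l, which limits C3 activation, was at 0.14. Receptors had a median of 0.02 over 9 genes. Itgax, a chain of a receptor for cleaved C3, was at -0.30 (SE 0.11, limma adjusted p = 0.232), and C3ar1, the receptor for C3a, was at -0.16. The Itgax probeset was dim, at a log2 signal of 5.87 in MEFs + DMSO, and a signal above background was not tested.

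**Figure D3:**
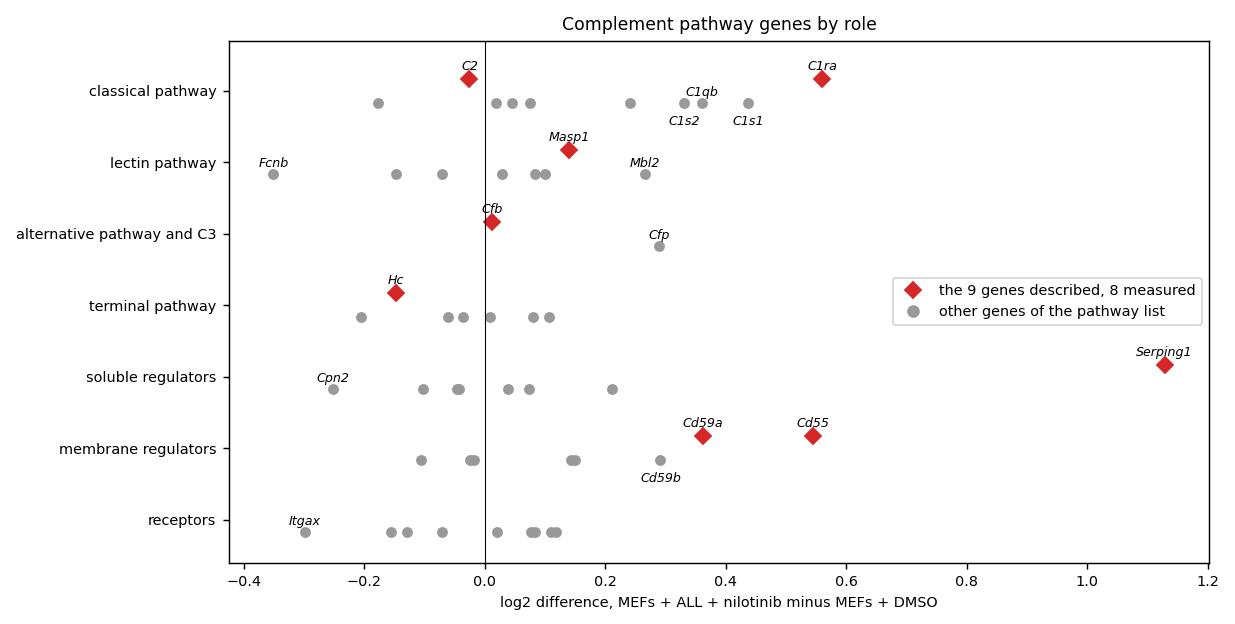
Log2 difference of MEFs + ALL + nilotinib minus MEFs + DMSO for complement genes, by role. Red diamonds are the 8 measured genes described above and grey circles are 44 other genes of the pathway, 1 symbol each. Serping1, at 1.13, stands to the right of every other gene plotted, C1ra follows at 0.56 and Fcnb lies farthest to the left at -0.35.

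The plot by role shows the regulators and the components on a common scale of differences. In MEFs + ALL + DMSO over MEFs + DMSO, 6 of the 44 other genes (13.6%) passed, with 4 higher and 2 lower, where 10.3% of all probesets did. Cd93, a surface protein of early B lineage, myeloid and endothelial cells, was at 10.72 against 7.17, a rise of 3.55 (SE 0.12, limma adjusted p = 1.48e-06). C7, a component of the pore, was at 8.48 against 5.19, a rise of 3.29 (SE 0.14, limma adjusted p = 2.79e-06). In MEFs + ALL + nilotinib these genes were at 7.28 and 4.98, and for both the interaction passed, at -3.39 for Cd93 and -3.49 for C7.

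Itgb2, the shared chain of leukocyte integrins, rose by 0.73 and Cd59b by 0.57 in MEFs + ALL + DMSO (limma adjusted p = 0.0451 and 0.0155). Fcnb fell by 0.51 and Colec11, a lectin that binds MASP proteases, fell by 0.33 (limma adjusted p = 0.0342 and 0.0480). The calls of Itgb2, Fcnb and Colec11 were lost in some alternative fits, at adjusted p-values of up to 0.106, 0.0837 and 0.113. On this array 8 of 9 precursor B and B cell markers and 7 of 7 pan-leukocyte markers also passed as higher, with median differences of 2.49 and 2.21. Their part in the values of Serping1, Cd93, C7 and the other genes of this array was not tested. In MEFs + ALL + nilotinib over MEFs + DMSO, 0 of these 9 and 0 of these 7 markers passed in limma, with medians of -0.10 and 0.10. The MEFs + ALL + DMSO array enters neither side of that comparison.

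The genes whose values were most like those of Serping1 were sought among the 19938 genes. Each gene was centred on its own mean over the 10 arrays, and likeness was the root mean square of the log2 differences from Serping1. The nearest were Penk (0.139), which encodes proenkephalin, Cxcl15 (0.161), Cxcl5 (0.174) and Ppbp (0.178), which encode chemokines, and Folh1 (0.185), which encodes a folate hydrolase. Since these genes were picked for their likeness over these arrays, their values are a description.

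Over MEFs + DMSO, Penk differed by 1.12 in MEFs + ALL + nilotinib and by 1.60 in MEFs + ALL + DMSO, where Serping1 differed by 1.13 and 1.38. Cxcl15 differed by 0.99 and 1.29, Cxcl5 by 0.94 and 1.30, Ppbp by 1.05 and 0.85, and Folh1 by 1.11 and 0.94. With the drug alone, all 5 lay within -0.06 to 0.24 of MEFs + DMSO.

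**Figure D4:**
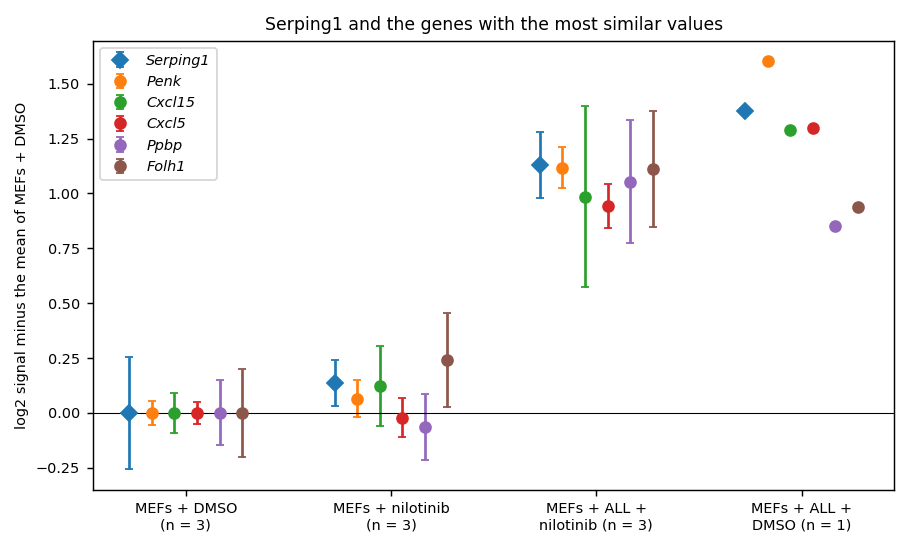
Serping1 and the 5 genes with the most similar values, as the log2 signal minus each gene's mean in MEFs + DMSO, by group. Points are group means and bars are ± 1 SD (n = 3, none for the lone MEFs + ALL + DMSO array). All 6 genes lie near 0 without ALL cells and between 0.85 and 1.60 above MEFs + DMSO with them.

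The plot of Serping1 with its nearest genes shows bars of unequal length, that of Cxcl15 in MEFs + ALL + nilotinib being the longest. The promoters of the complement genes were searched for motifs of factors of the inflammatory response. RefSeq promoters were at hand for 5 of the 9 genes (Cd55, Cd59a, C1ra, C3 and Hc), and the 250 bases before the start were searched on both strands. The motifs were the kappa B consensus (7.25% of 32851 promoters), the gamma-activated TTCNNNGAA (7.02%), the interferon-stimulated core GAAANNGAA (7.13%), the C/EBP motif TTGCNNAA (9.56%) and the AP-1 motif TGANTCA (6.75%).

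C1ra, Cd55 and Hc held none of these letters in that window. Cd59a held 1 interferon-stimulated core and C3 1 C/EBP motif, 45 to 38 bases before the start (positions -45 to -38). The Cd59a match is shown with its flanks, since the Cd59a arrays of both nilotinib groups lay above those of MEFs + DMSO. Neither difference passed (limma adjusted p = 0.368 for MEFs + nilotinib and 0.167 for MEFs + ALL + nilotinib), and a link to the motif was not tested. The stretch is from chr2:104095589-104095647 on the + strand of GRCm38.p6, with the match in capitals.
Cd59a: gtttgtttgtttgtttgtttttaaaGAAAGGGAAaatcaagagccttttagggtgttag
The match spans positions -187 to -179 from the start. A match of letters is a description and says nothing of binding.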

How the data were processed

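Total RNA from 10 dishes of irradiated MEFs was hybridised to Affymetrix Mouse Gene 1.0 ST arrays, 1 array per dish. The values deposited by the authors are log2 probeset signals that they describe as RMA-normalized, made with Partek (version not given in the sources used here). Probesets were named from the platform annotation, in which 21789 of 35557 pair with 1 symbol, 1621 with several and 12147 with none. Columns that matched no sample numbered 0.

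Groups were compared with limma 3.58.1 in R 4.3.3 (lmFit with eBayes, 4 group means and a shared spread over all 10 arrays), with Benjamini-Hochberg adjustment over all probesets and a threshold of 0.05. Folds are ratios of mean anti-logged values. Known changes simulated in the same layout were used to test the fit. The members and the lists (50 other complement genes, and markers of fibroblasts, precursor B and B cells, leukocytes, macrophages, endothelium and hepatocytes) were chosen with earlier results of these data known.

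Named were the 9 members, the other complement genes that passed in any comparison, the 2 in each role with the largest absolute difference of MEFs + ALL + nilotinib over MEFs + DMSO that passed in none, and the 5 genes nearest to Serping1. The same search around C3 could not be made. C1qa and C1qc were named as the other chains of C1q beside C1qb. Alternatives were a fit of the compared groups alone, trend with robust eBayes, array weights, quantile normalization, median centring, a mean log2 signal of at least 5, a replicate block, leaving out each replicate and, chosen after seeing the data, leaving out the MEFs + ALL + DMSO array. Close relatives (C1ra and C1rb, C1s1 and C1s2, Cd55 and Cd55b, Cd59a and Cd59b, C4a and C4b) may share probe signal.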

Additional observations from a re-analysis of the deposited data

How the results depend on the processing

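Of 512 recomputed differences of single complement genes, 470 kept their direction and their side of the threshold, 14 lost and 3 gained a call, and 25 changed sign. All 14 losses were of Serping1 and all 3 gains of C1ra. The rise of Serping1 kept its direction in every alternative. Leaving out the MEFs + ALL + DMSO array, which has a group mean of its own, could not change a comparison between the groups of 3 and is no check of one. Probesets past the test for MEFs + ALL + nilotinib over MEFs + DMSO (223) numbered 12 with the compared groups alone, 476 with trend and robust eBayes, 1263 with array weights, 338 without dim probesets and 8 to 99 with 1 replicate left out. Of the 8 genes (1 as reported), 0 passed with the compared groups alone, 2 with array weights, with quantile normalization and without dim probesets, and 0 to 1 with 1 replicate left out. Of the other pathway genes (0 as reported), 2 passed with array weights, Fcnb and Cd59b. For MEFs + nilotinib over MEFs + DMSO (0 as reported), 0 to 57 probesets passed with 1 replicate left out, the 57 without MEFs + nilotinib replicate 1. For MEFs + ALL + nilotinib over MEFs + nilotinib (66), 4 passed with the compared groups alone, 117 with trend and robust eBayes, 141 with array weights and 12 to 36 with 1 replicate left out, and of the 8 genes (1) 0 passed with the compared groups alone and 0 with any replicate left out. For MEFs + ALL + DMSO over MEFs + DMSO (3651), 6615 passed with array weights and 2137 to 2491 with 1 replicate left out. For the interaction (1406) these were 2323 and 1008 to 1932. The cause of these changes in the counts was not tested.

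The sign changes were of differences near 0. For C2 over MEFs + DMSO, MEFs + ALL + nilotinib was at 0.00759 with array weights, 0.018 with quantile normalization and 0.00697 with median centring, and at -0.094 to 0.087 with 1 replicate left out. Cfb was at -0.013 with array weights and at -0.013 to 0.027 with 1 replicate left out. In MEFs + ALL + DMSO, Cd59a was at -0.00617 with array weights, -0.067 with quantile normalization and -0.039 to 0.090 with 1 replicate left out, Masp1 was at -0.038 with quantile normalization, and C1ra was at -0.089 to 0.073 with 1 replicate left out. The interaction of Cd59a was 0.025 with array weights, 0.089 with quantile normalization and -0.11 to 0.084 with 1 replicate left out, and that of Masp1 was 0.077 with quantile normalization and -0.035 to 0.011 with 1 replicate left out. With 1 replicate left out, MEFs + nilotinib over MEFs + DMSO was -0.052 to 0.14 for C2, and MEFs + ALL + nilotinib over MEFs + nilotinib was -0.12 to 0.027 for C2 and -0.079 to 0.11 for Cd59a.

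Replicate numbers named dishes only. Deviations of same-numbered arrays correlated at -0.293 to 0.241 over 9 pairs and those of other arrays at -0.259 to 0.389 over 18 pairs, so the numbers were not taken as pairs. With the replicate block, 8 probesets and 0 of the 8 genes passed over MEFs + DMSO, and 12 probesets and 0 of the 8 genes over MEFs + nilotinib, with Serping1 at adjusted p = 0.0675 and 0.109. The mean over several probesets of a gene could not be tried, since each gene had 1.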

Other observations

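In MEFs + ALL + nilotinib over MEFs + DMSO, 1 of 10 fibroblast markers passed as higher, and 0 of 5 endothelial and 0 of 4 hepatocyte markers passed in limma. Their summed anti-logged signals over the groups of 3 were 42628 to 52328 for fibroblasts, 290 to 342 for endothelium and 195 to 241 for hepatocytes. In MEFs + ALL + DMSO these were 41105, 395 and 183, and 2 fibroblast markers passed as higher and 1 as lower, 1 endothelial marker as higher and 1 hepatocyte marker as lower.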
